A study of Rattus norvegicus with 6 samples.

Results

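The genes described here encode 7 subunits of the GABA-A receptor, namely Gabra2, Gabra3, Gabra4 and Gabra5 (alpha subunits), Gabrb1 and Gabrb2 (beta subunits) and Gabrd (the delta subunit). They were read in the medial prefrontal cortex (mPFC) of rats killed 90 min after a single dose of lysergic acid diethylamide (LSD) or after saline. All probe sets whose platform annotation named exactly 1 of these genes and no other were taken, which gave 12 of the 8740 probe sets tested. Gabra3, Gabra4, Gabra5, Gabrb2 and Gabrd had 2 probe sets each, Gabra2 and Gabrb1 had 1, and none of the 7 genes was without one. The male Sprague-Dawley rats received either (+)-LSD tartrate intraperitoneally at 1.0 mg/kg (3 arrays) or intraperitoneal saline (3 arrays). According to the labels, RNA came from the combined tissue of the 4 animals of a group, whereas by the study's text each array holds the cortex of a pair of rats. Because these sources disagree, the spread of arrays within a group can be technical in origin. P-values set the difference between groups against that spread, so they speak only of these arrays. A description line of every sample also names the other treatment than its title does. Groups were taken from the titles and the treatment field, and if the description line were right instead, all signs given below would be reversed.

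GABA-A receptors are pentameric chloride channels that carry most fast inhibition in the cortex. A typical synaptic receptor combines alpha, beta and gamma subunits and binds GABA between beta and alpha, and benzodiazepines between alpha and gamma. Receptors that hold delta in place of gamma sit outside the synapse, respond to low ambient GABA and are sensitive to neurosteroids. LSD is an agonist of serotonin receptors, which both pyramidal cells and interneurons of the mPFC carry.

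The promoters of the 2 beta genes are shown because they share several runs of letters in the same order. They come from the RefSeq promoters of the GRCr8 assembly (250 bases before to 50 after the annotated start), and are printed 5′ to 3′ on the gene's own strand, with capitals for runs of at least 8 bases that both promoters hold in the same order.
Gabrb1, chr14:36902872-36902953, minus strand: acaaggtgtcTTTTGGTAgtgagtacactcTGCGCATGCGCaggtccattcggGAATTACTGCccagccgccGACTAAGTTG
Gabrb2, chr10:27439674-27439744, plus strand: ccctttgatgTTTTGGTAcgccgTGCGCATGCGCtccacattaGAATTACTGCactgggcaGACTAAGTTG
The run GACTAAGTTG is held by 5 of 33469 RefSeq promoters (0.0149%, either strand) and GAATTACTGC by 13 (0.0388%). The other runs are commoner, with TGCGCATGCGC in 200 promoters (0.598%) and TTTTGGTA in 291 (0.869%). Both promoters also hold TAAAGGGAT (65 promoters, 0.194%) and CAGCCGCCG (363, 1.08%), but in another order. All these counts include the promoters of Gabrb1 and Gabrb2 themselves. No other pair of promoters was compared, so how unusual such sharing is was not tested. The longest run, without its first base, is the palindromic motif of the transcription factor NRF1, which 0.852% of all promoters hold and 2 of the 6 member promoters in the table, those of Gabrb1 and Gabrb2. The cyclic AMP response element TGACGTCA (1.83% of promoters) and the motif GCGTGGGCG of the Egr family (0.544%), whose genes are induced by neuronal activity, were searched on both strands and matched 0 of the 6. Gabra2 has no entry in that table. These matches describe letters only. The genes are also neighbours on chromosomes, since Gabrb1, Gabra4, Gabra2 and the gamma gene Gabrg1 lie in a row interrupted by 1 other protein-coding gene, Cox7b2, and Gabrb2 lies beside Gabra6.

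The arrays show little change of these subunits after LSD. In limma with Benjamini-Hochberg adjustment over all 8740 probe sets and a threshold of 0.05, 0 of the 12 were called, against 0.0686% of all probe sets (0.0114% higher and 0.0572% lower). An unadjusted limma p below 0.05 was found for 1 of them, Gabra2, which was higher, where 3.92% of all probe sets had one and 2.4% had one with LSD higher. The exact Wilcoxon rank sum test, which 3 against 3 arrays cannot bring below p = 0.1, called 0. Of the 12, 4 were nominally higher after LSD (51.4% of all probe sets) and 8 lower (48.6%), with log2 changes between -0.14 and 0.22 and a median of -0.039, against a median of 0.0045 over all probe sets. The 95% intervals of all 12 lay inside a 1.5-fold change in either direction, the lowest bound being 0.702-fold and the highest 1.35-fold on the RMA scale, which compresses changes of dim probe sets. The LSD and saline arrays did not overlap in 2 of the 12, both with LSD higher, which is 16.7% of the members against 10.4% of all probe sets (6.58% with LSD higher and 3.79% with LSD lower).

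**Figure D1:**
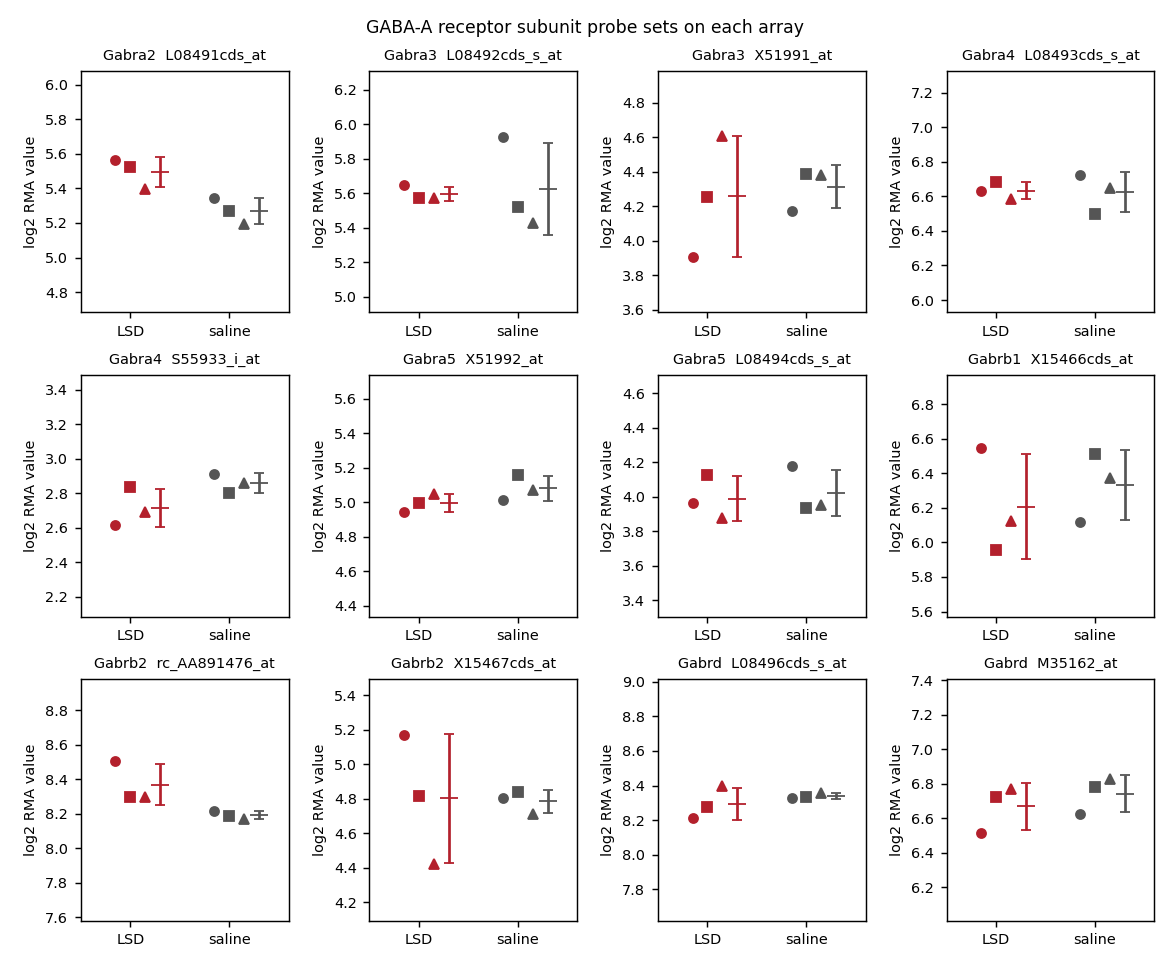
Log2 RMA values (vertical axis) of the 12 subunit probe sets, 1 panel each over a span of equal height, with LSD arrays in red and saline arrays in grey. Circles, squares and triangles are replicates 1, 2 and 3, and bars give mean and SD (n = 3). The LSD points lie above all saline points for Gabra2 and for Gabrb2 rc_AA891476_at only.

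Gabra2 encodes the alpha 2 subunit, which is concentrated at synapses on the soma and axon initial segment of forebrain pyramidal cells and is one of the benzodiazepine-sensitive alphas. Its probe set L08491cds_at read 5.56, 5.52 and 5.39 log2 units on LSD arrays 1, 2 and 3, against 5.34, 5.27 and 5.19 on saline arrays 1, 2 and 3. The groups did not overlap, although the lowest LSD value and the highest saline value were close to each other. The mean was 5.49 ± 0.089 after LSD and 5.27 ± 0.075 after saline (SD, n = 3 each), a log2 change of 0.22 ± 0.089 (SE) or 1.17-fold, with a 95% interval from 1.01-fold to 1.35-fold. It did not pass over all probe sets (limma adjusted p = 0.981). Its change stayed positive with any 1 array left out, between 0.19 without saline 3 and 0.27 without LSD 3. Under the alternatives tried, the adjusted p ran from 0.146 to 0.999 and never passed. This gene had no second probe set against which to set the reading.

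The other alpha subunits showed no such separation, and all of them overlapped between the groups. Gabra3 encodes alpha 3, another benzodiazepine-sensitive alpha, and its brighter probe set L08492cds_s_at read 5.64, 5.57 and 5.57 log2 units after LSD, against 5.93, 5.52 and 5.43 after saline. Saline 1 was the highest of the 6 and the other 2 saline arrays the lowest, so the saline SD was 0.27 and the LSD SD 0.042 (n = 3 each). The log2 change was -0.027 ± 0.13 (SE) over all arrays and 0.12 without saline 1. The second Gabra3 probe set, X51991_at, read 3.91, 4.26 and 4.61 after LSD, against 4.17, 4.39 and 4.38 after saline. Here the spread lay in the LSD arrays, which held both the lowest and the highest value, and the log2 change of -0.057 ± 0.17 (SE) became 0.12 without LSD 1 and -0.23 without LSD 3. The 2 probe sets deviated to the same side of their own means on 1 of the 6 arrays.

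Gabra4 encodes alpha 4, which pairs with delta in extrasynaptic receptors and does not bind diazepam. Its brighter probe set L08493cds_s_at read 6.63, 6.68 and 6.59 log2 units after LSD, against 6.72, 6.50 and 6.65 after saline. All 3 LSD values lay within the saline range, and the log2 change was 0.0096 ± 0.091 (SE, 95% interval from 0.871-fold to 1.16-fold). The dim probe set S55933_i_at (the suffix marks a set with fewer probes than usual) read 2.62, 2.84 and 2.69 after LSD, against 2.91, 2.80 and 2.86 after saline. LSD 2 lay above saline 2, which was the 1 overlap between the groups. With -0.14 ± 0.091 (SE) it was the most negative change among the 12 (limma adjusted p = 0.981), and the 2 Gabra4 probe sets had opposite signs.

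Gabra5 encodes alpha 5, a largely extrasynaptic subunit of pyramidal cell dendrites that contributes to tonic inhibition. Its brighter probe set X51992_at read 4.94, 4.996 and 5.05 log2 units after LSD, against 5.02, 5.16 and 5.07 after saline. LSD 1 and 2 lay below all saline arrays and LSD 3 among them, and the log2 change of -0.086 ± 0.083 (SE) stayed negative with any 1 array left out, from -0.12 to -0.047. L08494cds_s_at read 3.96, 4.13 and 3.87 after LSD, against 4.18, 3.94 and 3.96 after saline. The groups were interleaved, with a log2 change of -0.033 ± 0.11 (SE) that became 0.043 without saline 1 and 0.024 without LSD 3.

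The beta subunits form the GABA site together with alpha. Gabrb2 encodes beta 2, a subunit of many synaptic receptors of the brain. Its brighter probe set rc_AA891476_at read 8.51, 8.30 and 8.30 log2 units after LSD, against 8.22, 8.19 and 8.17 after saline. All LSD arrays lay above all saline arrays, LSD 1 by the widest margin. The mean was 8.37 ± 0.12 after LSD and 8.19 ± 0.024 after saline (SD, n = 3 each), a log2 change of 0.18 ± 0.090 (SE) or 1.13-fold (95% interval from 0.979-fold to 1.31-fold, limma adjusted p = 0.981). Without LSD 1 it was 0.11, and without any other array between 0.17 and 0.21. The second Gabrb2 probe set did not separate the groups. X15467cds_at read 5.17, 4.82 and 4.42 after LSD, against 4.81, 4.84 and 4.71 after saline, so that the LSD arrays held the highest and the lowest value and their SD was 0.37, against 0.066 in saline (n = 3 each). Its log2 change of 0.017 ± 0.17 (SE) became -0.17 without LSD 1 and 0.21 without LSD 3. Within an array, the brighter probe set exceeded the dimmer one by 3.34, 3.48 and 3.88 log2 units after LSD and by 3.41, 3.35 and 3.46 after saline, so the 2 readings of this gene diverged on LSD 3.

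Gabrb1 encodes beta 1, which is found in neurons and also in astrocytes. Its probe set X15466cds_at read 6.55, 5.95 and 6.12 log2 units after LSD, against 6.12, 6.51 and 6.37 after saline. LSD 1 was the highest of the 6 arrays and LSD 2 the lowest, and saline 1 lay below LSD 3. The log2 change was -0.13 ± 0.17 (SE, 95% interval from 0.702-fold to 1.20-fold), and it ran from -0.29 without LSD 1 to 0.00081 without LSD 2. LSD 1 was thus the highest array on all 3 probe sets of the beta genes.

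Gabrd encodes delta, the subunit that marks extrasynaptic, neurosteroid-sensitive receptors. L08496cds_s_at read 8.21, 8.28 and 8.40 log2 units after LSD, against 8.33, 8.33 and 8.36 after saline. The saline arrays were within an SD of 0.016 of each other, the smallest spread among the members, and the LSD arrays (SD 0.094, n = 3 each) lay on both sides of them. M35162_at read 6.52, 6.72 and 6.77 after LSD, against 6.63, 6.78 and 6.83 after saline. The log2 changes of the 2 probe sets were -0.044 ± 0.084 and -0.074 ± 0.10 (SE), with intervals from 0.848-fold to 1.11-fold and from 0.807-fold to 1.12-fold. LSD 1 was the lowest of the 6 arrays on both, and without it the changes were -0.0027 and 0.0037.

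**Figure D2:**
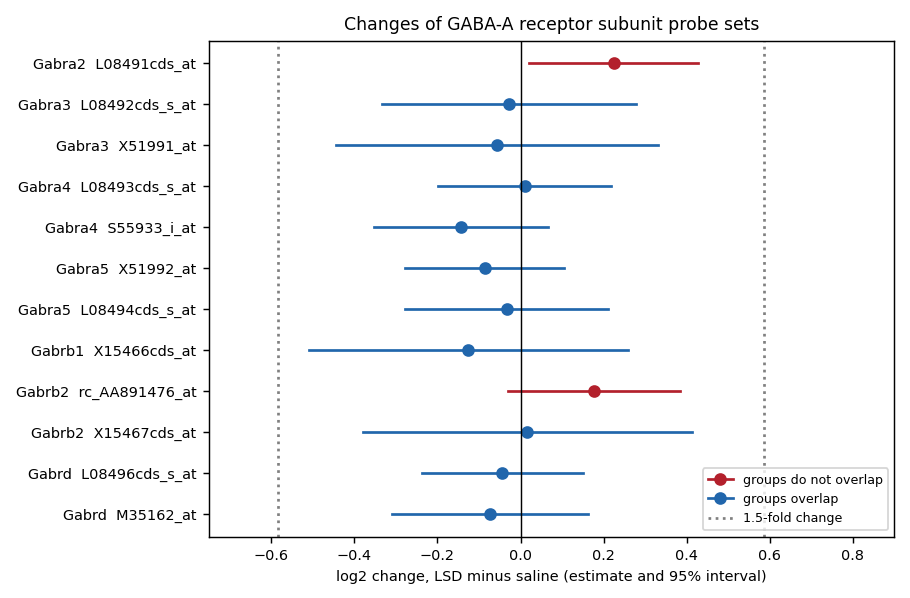
Log2 change, LSD minus saline (horizontal axis), of the 12 subunit probe sets, each drawn as the limma estimate with its 95% interval over 3 arrays a group. Red marks the 2 probe sets whose groups did not overlap, dotted lines mark a 1.5-fold change, and the interval of Gabra2 alone excludes 0.

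A single array moved several members. LSD 1 was the array farthest from the mean of the other 5 on 6 of the 12 probe sets, and 5 of the 12 kept their sign with every array left out in turn, namely Gabra2 L08491cds_at, Gabra4 S55933_i_at, Gabra5 X51992_at, Gabrb2 rc_AA891476_at and Gabrd L08496cds_s_at. The SD within a group was larger after LSD than after saline in 8 of the 12, and ran from 0.016 to 0.37 log2 units. Over all probe sets, saline 1 was the array most unlike the rest, lying over 1 log2 unit away from the others' mean on 78 probe sets. The other arrays had between 2 and 21 such probe sets, and correlations between arrays ran from 0.984 to 0.996. Without saline 1 the Gabra2 change was 0.26 and that of Gabrb2 rc_AA891476_at was 0.19, and 0 of the 12 passed.

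**Figure D3:**
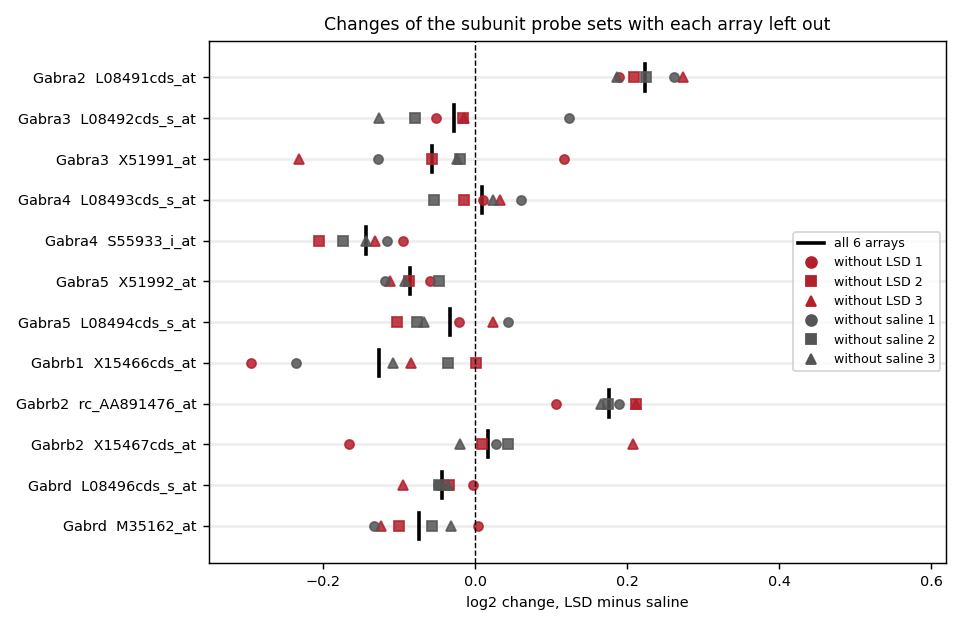
Log2 change, LSD minus saline (horizontal axis), of each subunit probe set over all 6 arrays (black bar) and with 1 array left out (points; red without an LSD array, grey without a saline array). Gabra2 and Gabrb2 rc_AA891476_at stay right of 0 throughout, and Gabrb2 X15467cds_at moves from -0.17 without LSD 1 to 0.21 without LSD 3.

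The profiles most like those of the members were sought among all probe sets with 1 symbol, by the root mean square difference of values centred on their own mean over the 6 arrays. For Gabra2, the higher member of lowest p, these were Rab7a, a GTPase of late endosomes (0.029 log2 units), Sord, sorbitol dehydrogenase (0.029), and Slc12a3, a sodium chloride cotransporter known from kidney (0.038), where the Gabra2 profile itself deviated from its mean by 0.13. For Gabra4 S55933_i_at, the lower member of lowest p, they were Gfer (0.025), the antioxidant enzyme gene Prdx6 (0.027) and Slc22a6, an organic anion transporter gene known from kidney (0.030), against a deviation of 0.10. Among 7006 probe sets close profiles over 6 arrays are easily found, so these are descriptions of likeness only.

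The remaining GABA-A subunits also stayed short of the threshold. Of 12 listed genes 8 had a probe set of their own, 4 nominally higher and 4 lower, with 0 called in limma, 0 at an unadjusted p below 0.05 and 0 without overlap. Their median log2 change was 0.018, against 0.0056 over 4736 genes. Gabra6, the alpha 6 gene of cerebellar granule cells, differed by -0.27 ± 0.17 log2 units (SE), and the gamma genes Gabrg1 and Gabrg3 by -0.021 ± 0.087 and 0.053 ± 0.15. Gabre, the epsilon gene, differed by 0.083 ± 0.083. The rho genes, best known from retina, differed by 0.037 (Gabrr1), -0.19 (Gabrr2) and -0.0013 (Gabrr3). The pi gene Gabrp had the widest interval, from 0.614-fold to 3.02-fold, since LSD 1 read 5.32 log2 units and the other LSD arrays 3.23 and 3.75, against 3.19, 3.54 and 4.23 after saline. The other listed subunits were not analysed here.

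Genes of proteins that anchor and traffic GABA-A receptors did not pass either. Of 22 listed genes 11 were measured, 8 nominally higher and 3 lower (median log2 change 0.060), where 2448 of all 4736 genes were nominally higher, and 0 were called in limma in either direction. An unadjusted limma p below 0.05 was found for 2 of the 11, against 152 of all 4736 genes, and the groups did not overlap for 3 of the 11, with LSD higher, against 330 of all 4736 genes with LSD higher. Their summed linear signal ran from 2018 to 2055 after LSD and from 1881 to 1959 after saline, with at least 53.7% of it from Ap2m1 on every array. Gphn, which encodes gephyrin, the scaffold that holds receptors at inhibitory synapses, read 5.43, 5.69 and 5.70 log2 units after LSD, against 5.40, 5.30 and 5.37 after saline. LSD 1 stood just above the saline arrays and the other 2 LSD arrays well above them, with a log2 change of 0.25 ± 0.10 (SE, limma adjusted p = 0.981). Plcl1 encodes a phospholipase-related protein that binds receptor beta subunits and GABARAP, and its brightest probe set D45920_at read 6.65, 6.59 and 6.65 after LSD, against 6.58, 6.29 and 6.33 after saline. Its log2 change was 0.23 ± 0.099 (SE, limma adjusted p = 0.981), and the other Plcl1 probe sets differed by 0.26 (E12159cds_s_at) and 0.027 (rc_AI072447_s_at). Ubqln1, whose product binds receptor subunits and raises their surface number, differed by 0.24 ± 0.11 with overlapping groups. The third gene without overlap was Ap2m1, a subunit of the clathrin adaptor that binds the receptor for endocytosis, at 0.060 ± 0.078. It is named because the count is small, after its value was seen.

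**Figure D4:**
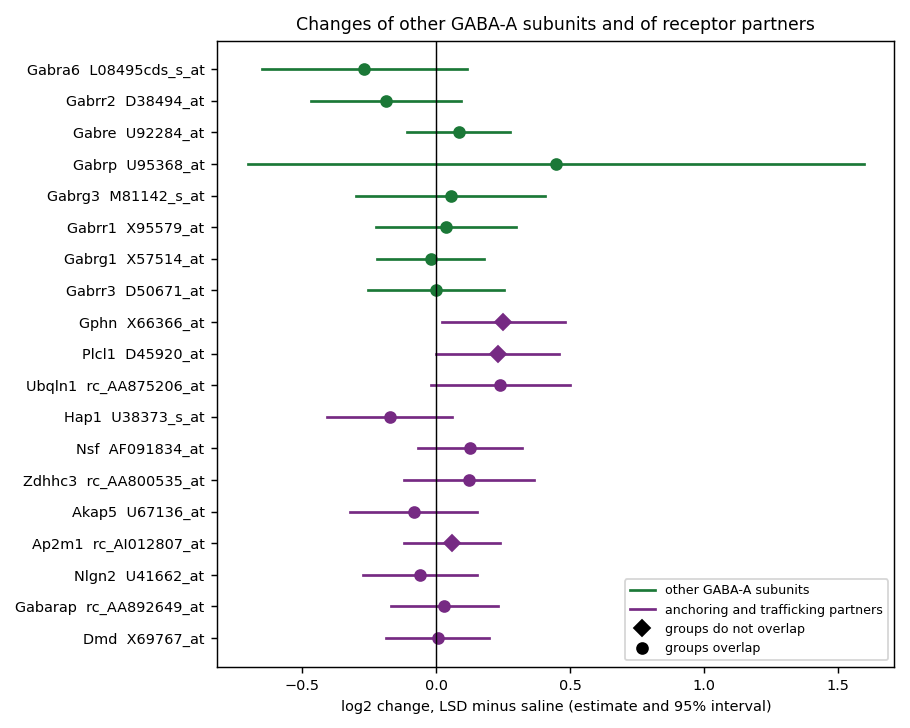
Log2 change, LSD minus saline (horizontal axis), of 8 other GABA-A subunits (green) and 11 anchoring and trafficking partners (purple), each drawn as the limma estimate with its 95% interval over 3 arrays a group. Diamonds mark Gphn, Plcl1 and Ap2m1, whose groups did not overlap, and no gene plotted passed over all probe sets.

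Genes that set the chloride gradient had 6 of 10 measured, 1 nominally higher and 5 lower (median log2 change -0.062), with 0 called. The chloride and bicarbonate exchanger gene Slc4a3 read 7.64, 7.83 and 7.84 log2 units after LSD, against 7.91, 7.94 and 7.91 after saline. Its log2 change was -0.15 ± 0.088 (SE, limma adjusted p = 0.981). It was the 1 gene of the list without overlap, where 158 of all 4736 genes did not overlap with LSD lower. The chloride importer gene Slc12a2 (NKCC1) differed by -0.073 ± 0.11 and Slc12a7, a potassium chloride cotransporter, by 0.065 ± 0.091. The other Slc12a2 probe sets differed by 0.011 (AF086758_at), -0.075 (AF086758_g_at) and 0.079 (S82233_s_at). Slc12a5, which encodes KCC2, the chloride exporter of mature neurons, differed by -0.042 ± 0.085 and is added for its role, after its value was seen. Endogenous modulators, that is genes of steroid synthesis and its cholesterol supply and the benzodiazepine-site ligand gene Dbi, had 6 of 11 measured, 2 nominally higher and 4 lower, with 0 called. Cyp11a1, the first enzyme of steroid synthesis, differed by 0.26 ± 0.14, Hsd17b6 by -0.17 ± 0.17 and Dbi by -0.098 ± 0.11. Glycine receptor genes, which encode related inhibitory channels, had 3 of 5 measured with 0 called. Changes were -0.28 ± 0.17 for Glra1 (X55246_at), -0.0081 ± 0.097 for Glra2 and 0.028 ± 0.089 for Glra3. The other Glra1 probe sets differed by only -0.055 (D00833_at) and -0.068 (D00833_g_at).

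Markers of cell types were read on the same arrays, since in bulk tissue fewer cells of a type and less RNA per cell cannot be told apart. Inhibitory neuron markers had 12 of 16 measured, 5 nominally higher and 7 lower. Their summed linear signal ran from 3486 to 3654 after LSD and from 3466 to 3618 after saline. Cck alone made up 38.5% to 40.3% of that sum across the arrays. Among these markers the GABA synthesis genes Gad1 and Gad2 differed by -0.20 ± 0.10 and -0.13 ± 0.088 log2 units (SE). The vesicular GABA transporter gene Slc32a1 differed by -0.0017. In the other direction Pvalb, the calcium-binding protein of fast-spiking interneurons, differed by 0.19 ± 0.097. Reln, which encodes reelin, differed by 0.16 ± 0.087 as the 1 gene of the list without overlap, where 330 of all 4736 genes did not overlap with LSD higher. The markers named here and below were singled out after their values were seen. Excitatory neuron markers had 3 nominally higher and 2 lower of 5 measured, and their sum ran from 2196 to 2378 after LSD and from 2182 to 2218 after saline. Nrgn alone made up at least 91.9% of it on every array, while Camk2a and Slc17a7 differed by -0.19 ± 0.10 and -0.16 ± 0.10 log2 units (SE).

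Sums of markers of other tissue and of glia separated the groups in part. Of 14 striatal markers 12 were nominally lower after LSD, where 2288 of all 4736 genes were, and 5 did not overlap with LSD lower, where 158 of all genes did not. Their sums ran from 1368 to 1498 after LSD and from 1476 to 1544 after saline. Pdyn, nominally higher by 0.065 ± 0.098 log2 units (SE), made up 34.7% to 42.5% of the sum across the arrays. Penk, Arpp21 and Tac1, all without overlap, differed by -0.46 ± 0.094, -0.36 ± 0.099 and -0.32 ± 0.13. Choroid plexus markers, 1 nominally higher and 3 lower, summed to between 1079 and 1188 after LSD and between 1461 and 1635 after saline. Ttr, the transthyretin gene, made up at least 86.0% of that sum on every array and differed by -0.49 ± 0.088 log2 units (SE). Enpp2 differed by -0.41 ± 0.16 and Kl by -0.080 ± 0.12, and Aqp1 by 0.15 ± 0.096. Astrocyte markers summed to between 6026 and 6374 after LSD and between 6386 and 6493 after saline. Yet 4 of them were nominally higher and 4 lower (median log2 change 0.011). Aldoc made up 32.1% to 36.0% of that sum across the arrays and differed by 0.027 ± 0.079 log2 units (SE). The bright S100b read a mean of 10.58 after LSD and 10.82 after saline, a change of -0.24 ± 0.097 with overlapping groups. Among the astrocyte markers the water channel gene Aqp4 differed by 0.41 ± 0.13 without overlap, and the glutamate transporter gene Slc1a3 by -0.25 ± 0.10 without overlap. The Aqp4 probe set was dim, with means of 3.998 after LSD and 3.59 after saline, where array medians lay between 5.43 and 5.45. Microglia markers, 3 nominally higher and 2 lower, summed to between 395 and 411 after LSD and between 367 and 387 after saline. C1qb made up 45.1% to 51.7% of that sum across the arrays and differed by 0.11 ± 0.091. The sums of thalamus markers (2 of 8 measured), oligodendrocyte markers (6 of 8) and endothelial markers (6 of 8) overlapped, and 0 markers on any list were called. Several of the markers named had more than 1 probe set, and only the brightest of each is given. Arpp21, Tac1, Pdyn, Ttr, Enpp2, Aldoc, S100b and C1qb had 2 each and Slc1a3 had 4. The same holds for Slc32a1, Nrgn and Camk2a above, with 2 each. No detection calls were used, so no marker can be said to be absent. The part of these shifts in the readings of Gabra2 and Gabrb2 was not tested.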

How the data were processed

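RNA from rat mPFC was labelled with biotin and read on 6 Affymetrix rat expression arrays, 3 per group. The deposited log2 values are the authors' RMA values (affy package), that is background-corrected, quantile-normalized and summarised per probe set. The version is not given in the sources used here. Quantile normalization hides a change shared by most transcripts. Of 8799 probe sets, 59 controls were left out, and no filter on level was applied. Names came from the platform annotation, in which 7006 probe sets had 1 symbol. All 12 members matched RefSeq (GRCr8) by gene ID. A probe set ending in _s_at can match several transcripts. The motifs were searched in RefSeq promoters, on both strands. For lists, the probe set of highest mean stood for its gene. LSD was set against saline by a two-sided moderated test over all 8740 probe sets, without covariates (lmFit and eBayes of limma 3.58.1, R 4.3.3). Calls needed a Benjamini-Hochberg adjusted p below 0.05. The fit was tested on simulated data. Arrays have no read depth, and their number limits the precision. The members and lists were chosen with earlier results of these data known. All member probe sets and other subunits are named, and up to 3 genes of lowest p per other pathway list. Other scalings, a level filter, other variance models, the replicate number as a block, gene-level values, a rank test and leaving out each array were alternatives.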

Additional observations from a re-analysis of the deposited data

How the results depend on the processing

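In no alternative did a subunit probe set or a pathway gene pass the threshold, with 0 calls each. Of the 176 changes of the 12 probe sets under the alternatives, 51 repeat the estimate over all arrays, most of them because the setting alters only the p-value, and of the other 125 the sign was kept in 110 and turned in 15. The sign turned for Gabra3 L08492cds_s_at (0.090) and Gabra5 L08494cds_s_at (0.093) with array weights, for Gabra4 L08493cds_s_at with cyclic loess (-0.0035) and with the mean of its probe sets (-0.067), and for Gabrb2 X15467cds_at with cyclic loess (-4.0e-05). With 1 array left out, ranges that crossed 0 were -0.13 to 0.12 and -0.23 to 0.12 for the Gabra3 probe sets, -0.054 to 0.060 for Gabra4 L08493cds_s_at, -0.10 to 0.043 for Gabra5 L08494cds_s_at, -0.29 to 0.00081 for Gabrb1, -0.17 to 0.21 for Gabrb2 X15467cds_at and -0.13 to 0.0037 for Gabrd M35162_at. Over all probe sets, 6 calls became 16 above the median level, 20 with an intensity trend and robust prior, 42 with array weights, 1 at gene level with the highest mean probe set, 0 in the rank test and 0 with the replicate block, and lay between 0 and 3 with 1 array left out (3 without saline 1, 0 without any other). Whether the replicate numbers mark a pairing of LSD and saline arrays is not known. Same-numbered arrays deviated from their group means with correlations of -0.018, -0.23 and 0.17. Only LSD 3 correlated best with its own number. Deviations within a group of 3 arrays depend on each other, so these correlations cannot settle the question. The block left 0 subunit calls. The cause of these shifts was not tested. Of the 12 member probe sets, 6 lay below the median signal, where RMA compresses changes.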
